A study of Sus scrofa with 24 samples.

Results

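Lipid droplets are the fat stores of a cell: a core of triglyceride under a single layer of phospholipid that carries a coat of proteins. The perilipins (PLIN1 to PLIN5) make up much of that coat and control the access of lipases, and the CIDE proteins pass lipid from small droplets to larger ones at their contact sites. In muscle, droplets lie inside the fibres and also in the fat cells between them, and both stores add to the fat measured within the muscle.

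The genes described here are the lipid droplet coat and CIDE genes, chosen by symbol: PLIN1, PLIN2, PLIN3, PLIN4, PLIN5, CIDEA, CIDEC, HILPDA and ADIG. All 9 are in the deposited table, with 24 transcripts between them, of 12017 genes and 22154 transcripts in all. The animals were F1 pigs of a cross between 8 Duroc boars and 112 Luchuan sows, raised on 1 farm and killed at 210 ± 6 days of age. Of 265 such pigs, 12 classed as high and 12 classed as low in intramuscular fat (IMF) were sequenced, with no treatment. RNA with a polyA tail came from longissimus dorsi, a back muscle, taken 25 minutes after death. The measured fat content of each animal is not used here.

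Each library is 1 animal, and animals are numbered within their group. Values are FPKM, fragments per kilobase of transcript scaled to sequencing depth, which corrects for transcript length and library depth, and a gene's value is the sum over its listed transcripts. The depth inferred from the smallest steps of the values was 32.9 to 40.8 M reads or read pairs per library. The muscle label was checked against 10 fibre markers, whose summed level was 20766 to 50031 FPKM in high IMF and 22621 to 59127 FPKM in low IMF animals. All of them were abundant except MB, the myoglobin gene, which is listed at 0 in 4 libraries. Of 12 fat cell markers 10 are in the table, with a summed level of 130 to 286 FPKM in high IMF and 87.2 to 232 FPKM in low IMF animals. Of 8 tested, TUSC5 and LEP passed the adjusted threshold, but LEP, at 0.888 FPKM in high IMF and 0.175 FPKM in low IMF animals, had the mean of 0.5 FPKM that the test asks for only through the high IMF animals. All 8 differences were positive, where 73.4% of all genes were, and their median was 0.83 in log2(FPKM + 1). The other 6 did not pass, from ADIPOQ at 1.32 (limma adjusted p = 0.0544) to CFD, the abundant adipsin gene, at 0.17 (0.822). Between them were THRSP at 1.01 (0.233), LIPE at 0.85 (0.288), FABP4 at 0.80 (0.223) and PPARG at 0.45 (0.419). None of the defining markers ADIPOQ, LEP, FABP4 and TUSC5 was at 0 in any library. Summed markers of other cells were 27.3 to 61.2 FPKM in high IMF and 17.5 to 54.7 FPKM in low IMF animals for endothelium. They were 10.8 to 36.3 FPKM in high IMF and 4.60 to 32.6 FPKM in low IMF animals for macrophages, and 330 to 988 FPKM in high IMF and 140 to 1370 FPKM in low IMF animals for fibroblasts. The 2 blood cell markers in the table, HBB and ALAS2, summed to 13.1 to 171 FPKM in high IMF and 9.85 to 82.7 FPKM in low IMF animals. Of all these and the fibre markers, CDH5 of endothelium at 0.55, ALAS2 at 0.34 and MYLPF of fibres at -0.46 in log2(FPKM + 1) had an unadjusted p under 0.05, and none passed by limma (adjusted p = 0.490, 0.586 and 0.521).

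No member passed the test over all genes, and the 3 with an unadjusted p under 0.05 were CIDEA, CIDEC and ADIG. CIDEA averaged 5.68 ± 3.24 FPKM in high IMF and 2.35 ± 0.915 FPKM in low IMF animals, and CIDEC averaged 5.72 ± 2.40 FPKM in high IMF and 2.78 ± 2.16 FPKM in low IMF animals (SD, n = 12 each). The 5 perilipins and HILPDA had differences of -0.088 to 0.28 in log2(FPKM + 1), with intervals that include 0. By limma on log2(FPKM + 1), adjusted over 11757 genes by Benjamini-Hochberg, 0 of 9 members had an adjusted p under 0.05, where 0.051% of all genes did. At an unadjusted p under 0.05, 3 of 9 members differed, where 7.68% of all genes did. All 3 were higher in high IMF, where 6.79% of all genes were at that p, or 2.81% after scaling by the trimmed mean of M (TMM), with the same 3 members. Without low IMF animal 10, 1654 of 11691 genes were higher at that p, a larger share. ADIG reached the mean of 0.5 FPKM needed for the test only through its high IMF values, and of the other 8 members 2 had an unadjusted p under 0.05. The median member difference was 0.25, against 0.077 over all genes, or 0.17 with TMM, against -0.000855 over all genes. The members were picked with earlier results of these data known, so that count is a description. In bulk tissue, fewer cells of a type and less RNA per cell cannot be told apart.

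**Figure D1:**
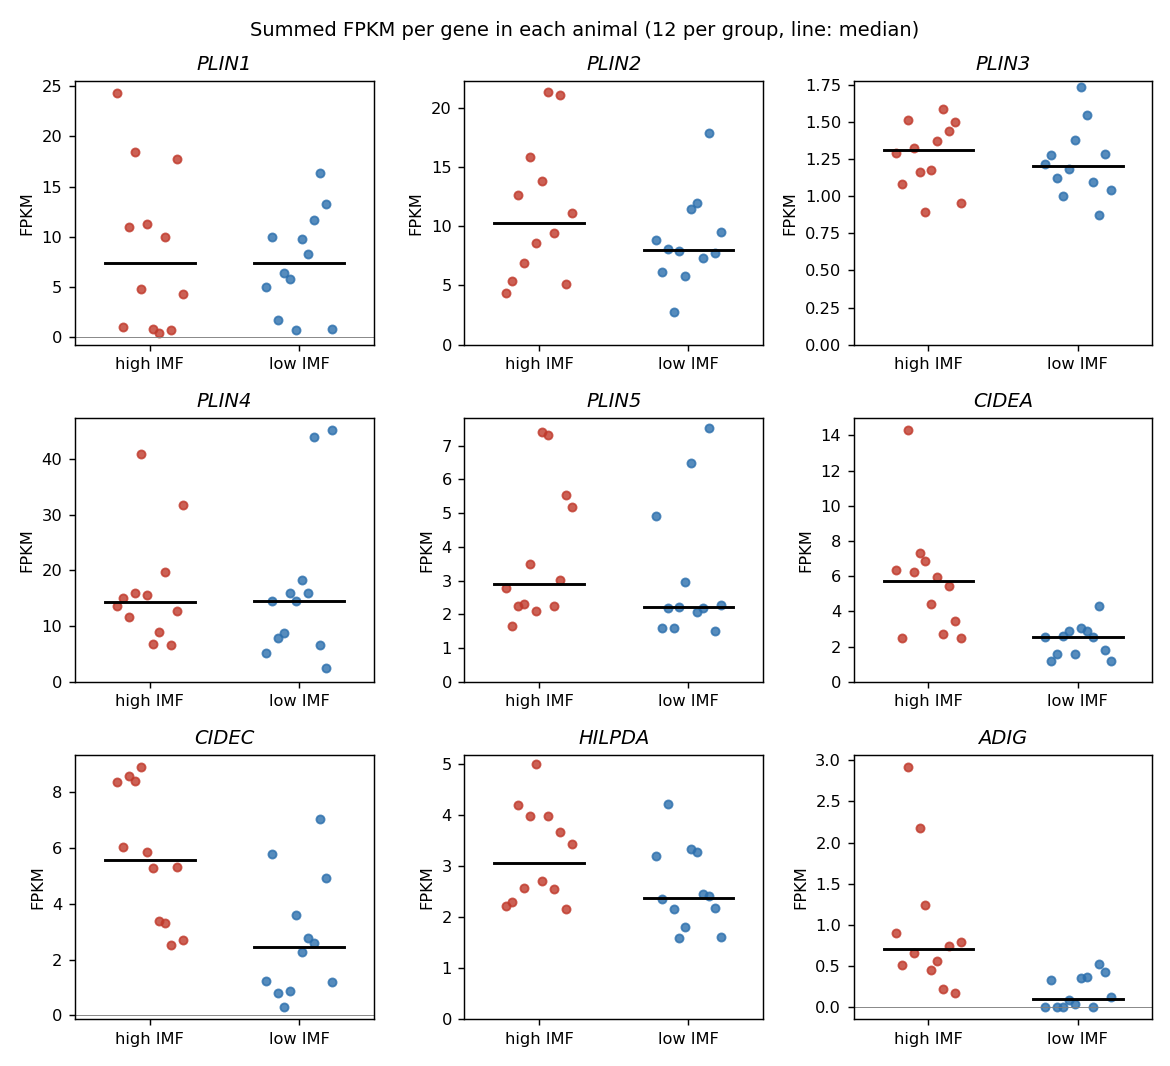
Each panel plots the summed FPKM of 1 gene (vertical axis, linear) in each animal, high IMF left and low IMF right, 12 animals each, with a line at the group median. All genes except PLIN4 have a higher median in high IMF animals, among them CIDEA, CIDEC and ADIG, and the groups overlap. PLIN1 spreads from 0.468 to 24.3 FPKM, and PLIN3 stays between 0.876 and 1.73 FPKM.

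CIDEA promotes the fusion of droplets and is known for its high level in brown fat. It lies on chromosome 6 at 97253074 to 97267406 on the minus strand of the build Sscrofa11.1, and its 1 listed transcript has 5 exons. Its lowest, median and highest values were 2.51, 5.70 and 14.3 FPKM in high IMF animals, against 1.17, 2.53 and 4.29 FPKM in low IMF animals. The groups overlapped, but 8 of 12 high IMF animals were above every low IMF animal and 10 of 12 were above the low IMF median. The highest value was that of high IMF animal 3. High minus low IMF was 0.91 in log2(FPKM + 1) (SE 0.204, 95% interval 0.49 to 1.33, limma adjusted p = 0.118). Without low IMF animal 10, which has the highest CIDEA value of its group, the limma adjusted p was 0.0369 with a difference of 0.98. With array weights it was 0.0381 with a difference of 0.96, and over all 36 alternatives it ran from 0.0369 to 0.588. Array weights also left 1368 of 11757 genes higher at an unadjusted p under 0.05 by limma, against 798 in the main test.

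The animal identifiers start with either of 2 numbers, which gives 2 sets with 6 animals of either group in each. The labels do not say what these numbers stand for. CIDEA in high IMF exceeded that in low IMF by 0.73 in log2(FPKM + 1) within the lower-numbered set (exact permutation p = 0.026, two-sided, n = 6 each). Among the higher-numbered animals it was higher by 1.10 (exact permutation p = 0.0152, n = 6 each). All such tests were two-sided, and the smallest p that 6 against 6 allows is 0.00216. They took the animals as independent, although some animals of the lower-numbered set share their first 9 identifier digits. For every member, the p of these tests are unadjusted and come from the same animals and values as the main test. They are therefore no separate support for a difference.

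The CIDEA locus also holds an assembled isoform without a symbol, of 12 exons over 56620 bases, that runs through the CIDEA interval and on to 97309880 on the same strand. It had 18.2 ± 6.15 FPKM in high IMF and 16.1 ± 7.45 FPKM in low IMF animals, several times the level of CIDEA itself. When it was added to CIDEA, an alternative chosen after the data were seen, the difference in log2(FPKM + 1) was 0.40 (limma adjusted p = 0.588). No source used here says how the authors divided reads between these transcripts.

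CIDEC, also called FSP27, is the fat cell member of the family and drives the growth of single large droplets. The gene lies on chromosome 13 at 66141206 to 66149851 on the minus strand, with 6 exons. Its lowest, median and highest values were 2.52, 5.58 and 8.89 FPKM in high IMF animals, against 0.304, 2.43 and 7.04 FPKM in low IMF animals. All 12 high IMF animals were above the low IMF median, and 6 of 12 low IMF animals were below every high IMF animal, while the other 6 lay within the high IMF range. The highest of these were low IMF animals 10, 2 and 11 at 7.04, 5.78 and 4.91 FPKM. On the log2(FPKM + 1) scale high IMF exceeded low IMF by 0.95 (SE 0.272, 95% interval 0.39 to 1.51, limma adjusted p = 0.269). It was 0.52 in the lower-numbered set (exact permutation p = 0.119, n = 6 each) and 1.38 in the higher-numbered set (exact permutation p = 0.0238, n = 6 each). A transcript of IL17RE on the opposite strand spans the CIDEC interval, and no source used here says whether the authors' counting used strand.

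ADIG encodes adipogenin, a small membrane protein of fat cells. The table lists 1 transcript of it, an isoform added by the assembly, on chromosome 17 at 41609468 to 41616055 on the plus strand with 3 exons. Its lowest, median and highest values were 0.166, 0.701 and 2.92 FPKM in high IMF animals, against 0, 0.0991 and 0.517 FPKM in low IMF animals. It is listed at 0 in low IMF animals 1, 3, 4 and 9 and in none of the high IMF animals. Of these, low IMF animal 3 had the most transcripts at 0 of all libraries, 1213. The next highest was low IMF animal 1 with 684. For ADIG, all 12 high IMF animals were above the low IMF median, and 8 were above every low IMF animal. The highest values were in high IMF animals 3 and 5 at 2.92 and 2.18 FPKM.

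The difference of ADIG in log2(FPKM + 1) was 0.64 (SE 0.157, 95% interval 0.31 to 0.96, limma adjusted p = 0.204), and 1.88 with a pseudocount of 0.1 in place of 1 (limma adjusted p = 0.116, over 33 alternatives 0.0744 to 0.347). Its mean was 0.944 FPKM in high IMF and 0.185 FPKM in low IMF animals, so it met the minimum mean of 0.5 FPKM only through the high IMF animals, and it was not tested without high IMF animal 3 or 5. The p is therefore no support for the difference. If the inferred depth counts reads and not pairs, these levels correspond to about 10.4 to 152 reads in high IMF and 0 to 32.1 in low IMF animals. The low IMF values thus rest on few reads. The difference was 0.38 in the lower-numbered set (exact permutation p = 0.0173, n = 6 each) and 0.90 in the higher-numbered set (exact permutation p = 0.00866, n = 6 each). These p come from the same animals and values, so they are no separate support for the difference.

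In the authors' deposited table, whose fold is low over high IMF, the transcripts of CIDEA, CIDEC and ADIG had folds of 0.578, 0.575 and 0.679 with p-values of 0.00115, 0.011 and 0.00261. Of 3 q-values given per transcript, the lowest of any member in the authors' deposited table was 0.234, for CIDEA.

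**Figure D2:**
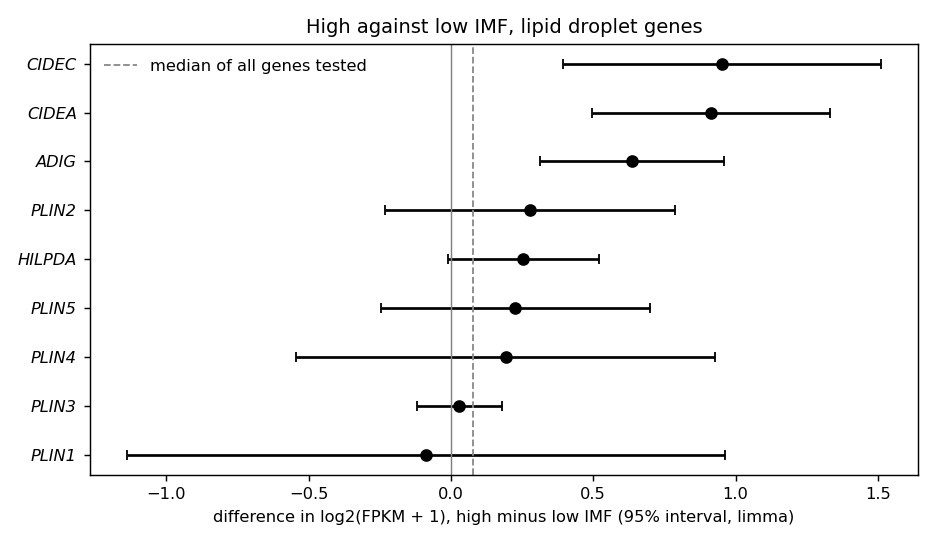
Points give the difference in log2(FPKM + 1), high minus low IMF (horizontal axis), for each of the 9 genes with its 95% interval from limma, and the dashed line is the median of all genes tested. The intervals of CIDEC, CIDEA and ADIG lie above 0, and those of the other 6 genes include it.

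PLIN1 is the main droplet coat protein of fat cells, where it holds back lipolysis until a hormone signal. It lies on chromosome 7 on the minus strand, and its 2 listed transcripts span 55237349 to 55251510 with 9 exons and 55237515 to 55250797 with 8 exons. Its summed level was 0.468, 7.43 and 24.3 FPKM (lowest, median and highest) in high IMF animals, against 0.689, 7.36 and 16.3 FPKM in low IMF animals. The groups overlapped over nearly their whole range, and 6 of 12 high IMF animals were above the low IMF median. The difference in log2(FPKM + 1) was -0.088 (SE 0.510, 95% interval -1.14 to 0.96, limma adjusted p = 0.979), and its sign changed in 10 of 37 alternative fits.

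In both groups PLIN1 fell into separate ranges. In 7 animals PLIN1 was at or below 1.74 FPKM, and in the other 17 it was 4.29 FPKM or more. The low range held high IMF animals 2, 7, 8 and 10 at 1.05, 0.812, 0.468 and 0.741 FPKM. It also held low IMF animals 3, 6 and 12 at 1.74, 0.689 and 0.862 FPKM. Within the groups, the SD of PLIN1 in log2(FPKM + 1) was 1.34, larger than in 99.2% of the genes tested, whose median was 0.33. All 4 of those high IMF animals belong to the lower-numbered identifier set, as does 1 of the 3 low IMF animals. High minus low IMF was -1.03 for PLIN1 in the lower-numbered set (exact permutation p = 0.227, n = 6 each) and 0.85 in the higher-numbered set (exact permutation p = 0.219, n = 6 each). The test of that difference between sets had an unadjusted limma p = 0.0585 and an adjusted p = 0.998.

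In the 7 animals with little PLIN1, other fat cell genes spread over much of their range. ADIPOQ, the adiponectin gene, was 3.43 to 34.0 FPKM in them, with a median of 16.4, against 6.24 to 48.6 FPKM with a median of 13.7 in the other 17. FABP4, the fatty acid carrier of fat cells, was 21.2 to 62.9 FPKM in the 7 animals, with a median of 37.5, against 23.9 to 132 FPKM with a median of 49.7 in the other 17. CIDEC was 0.791 to 6.04 FPKM in the 7 animals, with a median of 3.37, against 0.304 to 8.89 FPKM with a median of 4.91 in the other 17. These animals were grouped by PLIN1 itself, so the values are given without a test.

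At the PLIN1 locus an isoform without a symbol, of 7 exons from 55236281 to 55251510, shares the strand and the interval. It was 0.144 to 13.5 FPKM in high IMF animals, with a median of 5.18, against 0.134 to 9.02 FPKM with a median of 1.91 in low IMF animals. High IMF animal 8, the lowest of all in PLIN1, had 6.95 FPKM of it. Added to PLIN1, it left 5 animals below 2 FPKM, 3 of high and 2 of low IMF. The difference in log2(FPKM + 1) of that sum was 0.21 (limma adjusted p = 0.946, with 0.902 to 0.999 over all 37 alternatives of PLIN1).

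**Figure D3:**
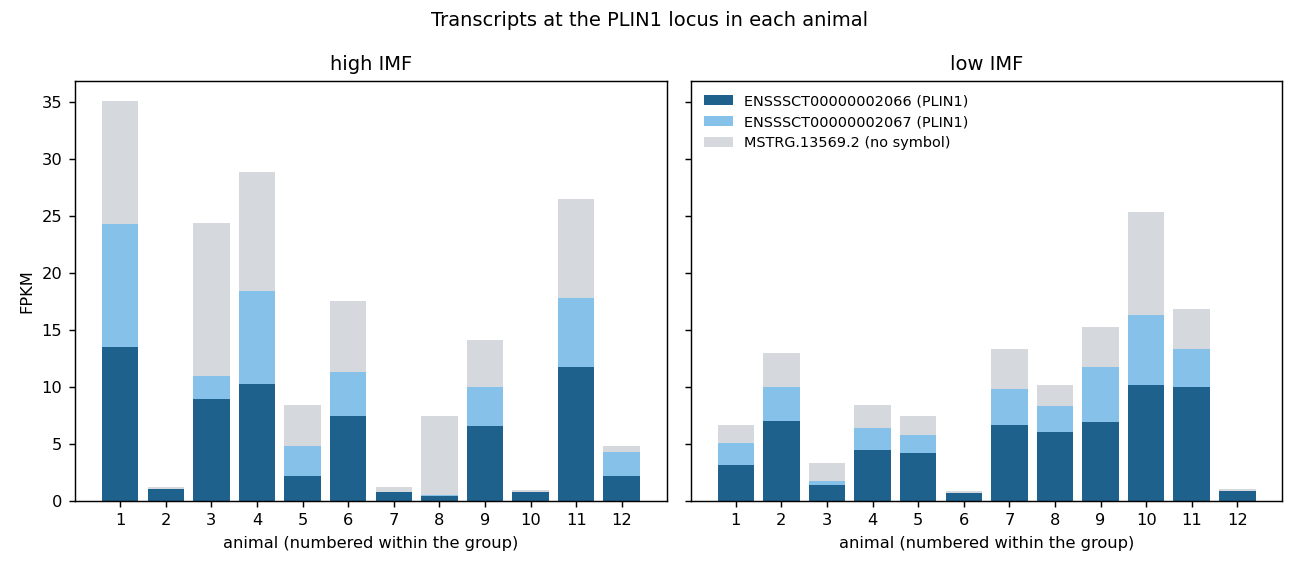
Bars stack the FPKM (vertical axis) of the 2 PLIN1 transcripts and of the overlapping isoform without a symbol in each animal (horizontal axis), high IMF left and low IMF right. High IMF animals 2, 7 and 10 and low IMF animals 6 and 12 stay near 1 FPKM in all, and in high IMF animal 8 almost the whole bar is the isoform without a symbol.

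PLIN2, the perilipin of most cell types and abundant in muscle fibres, lies on chromosome 1 on the plus strand with 3 listed transcripts from 203683875 to 203713121. It was 4.34, 10.3 and 21.3 FPKM (lowest, median and highest) in high IMF animals, against 2.74, 7.98 and 17.9 FPKM in low IMF animals. The groups overlapped, with high IMF animals 8 and 10 at 21.3 and 21.1 FPKM above all others and low IMF animal 4 below all others. For PLIN2 the difference in log2(FPKM + 1) was 0.28 (SE 0.248, 95% interval -0.23 to 0.79, limma adjusted p = 0.805). The reference transcript made up most of PLIN2 in all 24 animals, with 70.4 ± 7.0% in high IMF and 66.5 ± 10.1% in low IMF animals.

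PLIN3 is a perilipin that moves between the cytosol and small, new droplets. PLIN3 lies on chromosome 2 at 73973317 to 73997400 on the plus strand, with 7 exons. Its lowest, median and highest values were 0.891, 1.31 and 1.59 FPKM in high IMF animals, against 0.876, 1.20 and 1.73 FPKM in low IMF animals. No animal stood apart. For PLIN3 the difference in log2(FPKM + 1) was 0.029 (SE 0.0729, 95% interval -0.12 to 0.18, limma adjusted p = 0.945), or -0.039 with TMM scaling. Its within-group SD of 0.15 was larger than in only 1.38% of the genes tested. As a fold on the FPKM + 1 scale, the interval runs from 0.92 to 1.13.

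PLIN5 is the perilipin of tissues that burn fat, where it links droplets to mitochondria. It lies on chromosome 2 at 74304634 to 74314315, 4312 bases before PLIN4 and on the same strand. Its median and highest values were 2.89 and 7.41 FPKM in high IMF animals, against 2.21 and 7.51 FPKM in low IMF animals. In either group most animals were lower, below 3.5 FPKM, and a few stood above them. These were high IMF animals 7, 8, 11 and 12 at 5.19 to 7.41 FPKM and low IMF animals 1, 7 and 10 at 4.93 to 7.51 FPKM. For PLIN5 the difference in log2(FPKM + 1) was 0.23 (SE 0.230, 95% interval -0.25 to 0.70, limma adjusted p = 0.827). Its assembled isoform was the larger of the 2 transcripts in 19 of 24 animals.

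PLIN4, a perilipin of fat cells and muscle fibres with a long repeated stretch, had the highest median level of the 9 genes by their listed transcripts, at 14.5 FPKM over all animals. It lies on chromosome 2 at 74318628 to 74331930 on the plus strand, PLIN3 being 321227 bases away, and it has 12 listed transcripts of 7 to 10 exons that start and end within a few bases of each other. The sum was 6.59, 14.3 and 40.9 FPKM (lowest, median and highest) in high IMF animals, against 2.41, 14.5 and 45.2 FPKM in low IMF animals. High IMF animals 5 and 12 and low IMF animals 9 and 12 stood above 30 FPKM in sum, and the groups overlapped throughout. The difference of the sum in log2(FPKM + 1) was 0.19 (SE 0.358, 95% interval -0.54 to 0.93, limma adjusted p = 0.924). With 1 animal left out it ran from 0.011, without low IMF animal 11, to 0.35, without low IMF animal 12.

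The transcript that carried PLIN4 differed from animal to animal. The assembled isoform MSTRG.7825.43, of 9 exons and 5369 bases, was the most abundant one in 10 of 12 high IMF and 5 of 12 low IMF animals. Its lowest, median and highest values were 1.36, 5.42 and 36.9 FPKM in high IMF animals, against 0, 0.960 and 38.1 FPKM in low IMF animals. It is listed at 0 in low IMF animals 1, 2, 5 and 11 and in no high IMF animal, while the highest value of all was that of low IMF animal 12. The difference in log2(FPKM + 1) was 1.35 (SE 0.557, unadjusted p = 0.023, limma adjusted p = 0.710 over 21405 transcripts).

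As a share of PLIN4, MSTRG.7825.43 was 42.0 ± 21.8% in high IMF and 19.1 ± 27.4% in low IMF animals. The difference was 22.9 percentage points (SE 9.90, 95% interval 2.43 to 43.4, limma adjusted p = 0.986 over 15165 transcript shares). In the other direction, MSTRG.7825.24, of 10 exons, had a median of 0.203 FPKM in high IMF and 0.722 FPKM in low IMF animals, and it reached 9.70 FPKM in low IMF animal 2. Its difference in log2(FPKM + 1) was -0.71 (SE 0.375, limma adjusted p = 0.801). In low IMF animal 9 alone, the reference transcript ENSSSCT00000014759 was 18.8 FPKM. The next highest low IMF value of it was 1.39 FPKM, and it was at most 2.09 FPKM in high IMF animals. Its median was 0.638 FPKM in high IMF and 0.564 FPKM in low IMF animals. The 11 transcripts other than MSTRG.7825.43 summed to 3.46, 8.04 and 18.4 FPKM (lowest, median and highest) in high IMF animals. In low IMF animals they summed to 2.41, 7.26 and 43.8 FPKM. Transcripts this similar share most of their bases, so their single values are less certain than the sum.

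**Figure D4:**
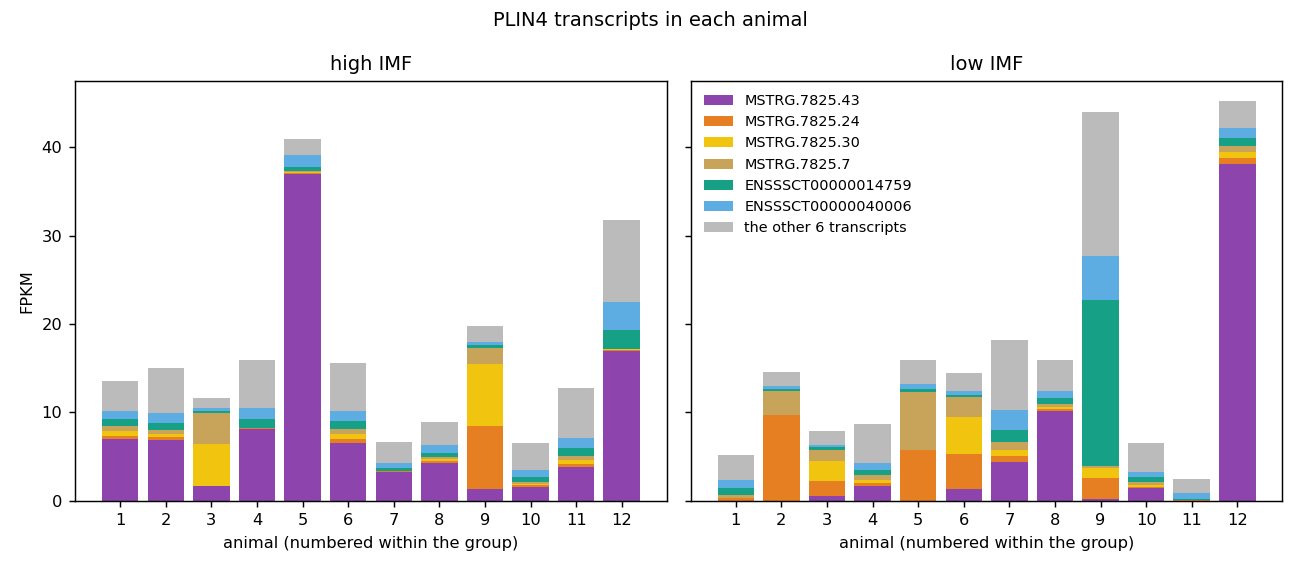
Bars stack the FPKM (vertical axis) of the PLIN4 transcripts in each animal (horizontal axis), high IMF left and low IMF right. MSTRG.7825.43 fills most of the bar in high IMF animal 5 and low IMF animal 12, while low IMF animals 2 and 9 are filled mostly by other transcripts.

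Over all 24 member transcripts, 0 passed the adjusted threshold, where 0.0187% of all transcripts did by limma. At an unadjusted p under 0.05, 4 of 24 differed, where 6.34% of all transcripts did, and all 4 were higher in high IMF, where 5.25% of all transcripts were. These are the transcripts of CIDEA, CIDEC and ADIG and the isoform MSTRG.7825.43, of which that of ADIG met the minimum mean only through the high IMF animals. Of 19 shares, 0 passed by limma, where 0.0% of all shares did, and 1 had an unadjusted p under 0.05, where 4.87% of all shares did.

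HILPDA, a small droplet protein induced by low oxygen and by fatty acids, inhibits the lipase PNPLA2. HILPDA lies on chromosome 18 at 19944930 to 19947057 on the minus strand, with 2 exons, between ATP6V1F, 188271 bases away, and LEP, 159121 bases away. Its lowest, median and highest values were 2.15, 3.06 and 4.99 FPKM in high IMF animals, against 1.58, 2.37 and 4.22 FPKM in low IMF animals. The groups overlapped, with 9 of 12 high IMF animals above the low IMF median. The difference in log2(FPKM + 1) was 0.25 (SE 0.129, 95% interval -0.012 to 0.52, limma adjusted p = 0.659), and over 36 alternatives the limma adjusted p ran from 0.372 to 0.999, the highest with TMM scaling.

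In order of median FPKM over the 24 animals, PLIN4 at 14.5 was followed by PLIN2 at 8.71, PLIN1 at 7.36, CIDEC at 3.48, CIDEA at 2.91, HILPDA at 2.56, PLIN5 at 2.28, PLIN3 at 1.25 and ADIG at 0.393. The order holds for the transcripts listed under each symbol. With the overlapping isoform without a symbol added, the median was 18.8 FPKM for CIDEA and 9.27 FPKM for PLIN1. Without these isoforms, most neighbours in the order did not keep it animal by animal. HILPDA was above PLIN5 in 13 of 24 animals, CIDEC above CIDEA in 14, and PLIN4 above PLIN2 in 16. PLIN5 was above PLIN3 in 24 of 24, and PLIN3 above ADIG in 21 of 24.

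Each member was set against the level of fat cell RNA from animal to animal. The fat cell level was taken as the mean log2(FPKM + 1) of ADIPOQ, LEP, FABP4 and TUSC5, and group means were removed before correlation over the 24 animals. ADIG had a Pearson r of 0.70 (permutation p = 7e-05) and a Spearman rho of 0.72 (permutation p = 0.00023), CIDEA an r of 0.69 (p = 0.00026) and a rho of 0.74 (p = 0.00013), and CIDEC an r of 0.66 (p = 0.00027) and a rho of 0.68 (p = 0.00053). Adjusted by Benjamini-Hochberg over the 9 relations computed, the permutation p of r was 0.00063, 0.00081 and 0.00081. Without the 2 animals farthest from the median fat cell level, r was 0.61 for ADIG, 0.66 for CIDEA and 0.63 for CIDEC. Within the groups, r was 0.74 in high IMF and 0.78 in low IMF animals for ADIG, 0.76 and 0.61 for CIDEA, and 0.64 and 0.70 for CIDEC, in the same order of groups. Adjusted over the 9 members within each group, the permutation p in that order was 0.0308 and 0.00288 for ADIG and 0.0308 and 0.066 for CIDEA. For CIDEC it was 0.0742 and 0.031, so CIDEA in low IMF and CIDEC in high IMF did not pass.

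The relation did not pass for PLIN2 (r = 0.35, rho = 0.24, adjusted permutation p = 0.19), PLIN5 (r = 0.29, rho = 0.088, adjusted permutation p = 0.262) or HILPDA (r = 0.12, rho = 0.17, adjusted permutation p = 0.758). PLIN3 (r = -0.028, rho = 0.14, adjusted permutation p = 0.90) and PLIN4 (r = -0.062, rho = -0.057, adjusted permutation p = 0.873) had values close to 0. PLIN1, which counts among the 9 relations adjusted, did not pass either (r = 0.42, rho = 0.48, adjusted permutation p = 0.105). Within the groups its r was 0.24 in high IMF (adjusted permutation p = 0.643) and 0.68 in low IMF animals (adjusted permutation p = 0.031, which passed). Since PLIN1 fell into separate ranges, these values pool animals of both ranges and are a description. In the 7 animals with little PLIN1, r with the fat cell level was -0.67 and rho -0.50. In the other 17, r was 0.20 and rho 0.40. These animals were grouped by PLIN1 itself, so no test is given for the ranges. FPKM values of 1 animal share a library and its scaling. The fat cell markers are given by group above, and their part in the differences of CIDEA, CIDEC and ADIG was not tested.

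**Figure D5:**
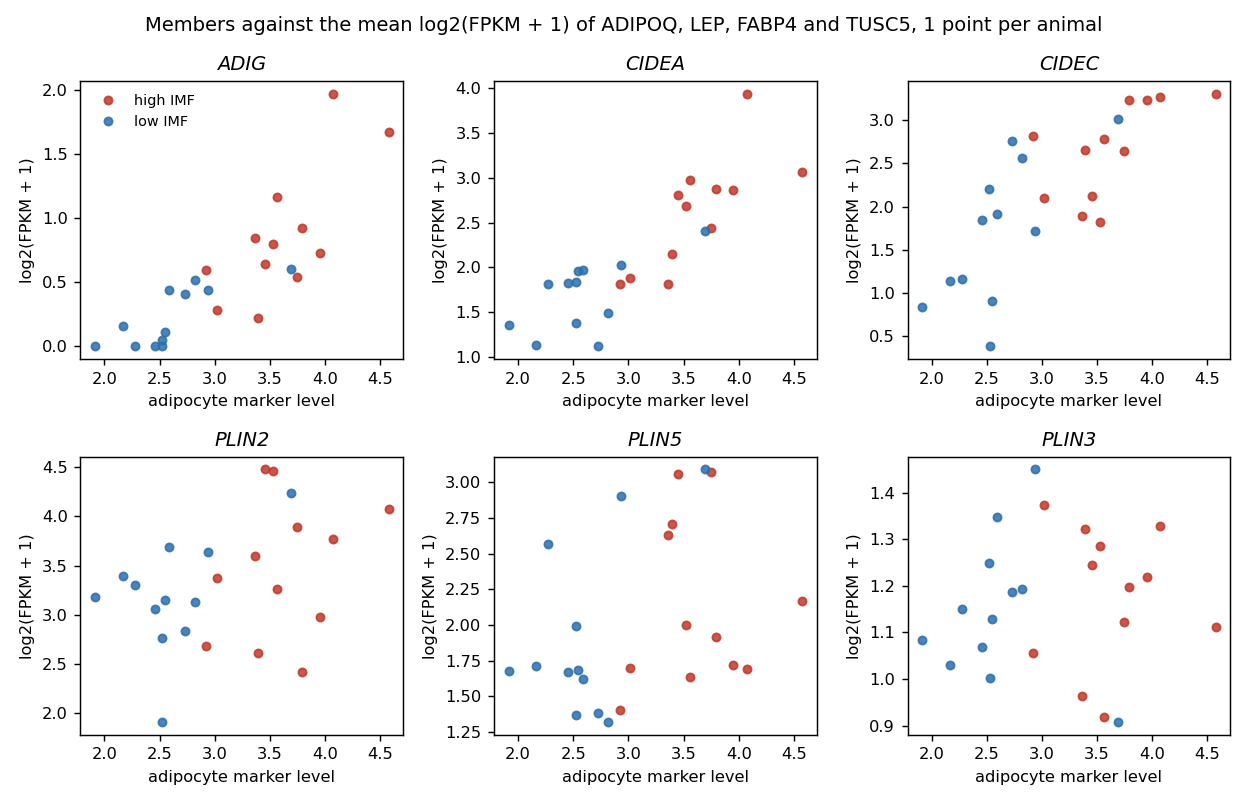
Each panel plots log2(FPKM + 1) of 1 gene (vertical axis) against the fat cell marker level of the same animal (horizontal axis, mean log2(FPKM + 1) of 4 markers), high IMF red and low IMF blue. ADIG, CIDEA and CIDEC climb with the marker level within both groups, with r of 0.61 to 0.78 within a group. CIDEA in low IMF and CIDEC in high IMF did not pass after adjustment within the group. PLIN3 has an r of -0.028 over all animals with group means removed.

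Between members, 36 pairs were correlated in the same way. CIDEA with ADIG (r = 0.68, rho = 0.62, permutation p = 0.00098, adjusted 0.0324) and CIDEC with ADIG (r = 0.52, rho = 0.55, permutation p = 0.0018, adjusted 0.0324) passed by r, and 0 of 36 passed by rho. Without the 2 animals farthest from the median of the first gene, r was 0.48 and 0.51. Within the groups, CIDEA with ADIG had an r of 0.81 in high IMF and 0.28 in low IMF animals, and CIDEC with ADIG 0.52 in high IMF and 0.75 in low IMF animals. Whether these differ was not tested. PLIN2 with PLIN5 (r = 0.52, rho = 0.55, permutation p = 0.0116, adjusted 0.137) and PLIN2 with HILPDA (r = 0.50, rho = 0.50, permutation p = 0.0171, adjusted 0.137) did not pass. CIDEA with CIDEC had an r of 0.29 (rho 0.34, permutation p = 0.141, adjusted 0.452). For that pair r was 0.57 within high IMF and 0.052 within low IMF animals, a difference that was not tested.

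Among 8004 other genes with a symbol and a mean of at least 1 FPKM, up to 3 of those most like each member were named by r over the 24 animals with group means removed, as a description. They were KLF11 (0.87), SLC25A34 (0.84) and UBXN8 (0.78) for PLIN2, and CPT2 (0.83), ANGPTL4 (0.77) and COQ5 (0.75) for PLIN5. KLF11 is a transcription factor, SLC25A34 a mitochondrial carrier, CPT2 an enzyme of fatty acid import into mitochondria and ANGPTL4 a secreted inhibitor of lipoprotein lipase. For PLIN1, with animals of both its ranges pooled, they were MFAP4 (0.76), MEDAG (0.71) and MMP19 (0.68). Those for PLIN3 were LRP3 (0.76), SLC27A3 (0.73) and CCDC102A (0.71). CIDEA was closest to SOD3 (0.71), TBC1D1 (0.69) and SFRP5 (0.69), CIDEC to SEMA3F (0.76), PC (0.69) and TRMT1 (0.69), and those named for ADIG were GNAI1 (0.68) and ADIPOQ (0.68). The values were lowest for PLIN4, with NBR2 at 0.61, AASS at 0.60 and ZC3H7B at 0.56, and for HILPDA, with RHOU at 0.59, LMCD1 at 0.59 and ARID5B at 0.58.

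Other genes of droplet biology passed the adjusted test in no list. Of 10 measured genes of droplet birth and growth, 0 passed by limma, 2 had an unadjusted p under 0.05, where 7.68% of all genes did, and 7 were positive, where 73.4% of all genes were. The median difference was 0.16 in log2(FPKM + 1), against 0.077 over all genes, or 0.060 with TMM. DGAT2, which makes triglyceride, averaged 16.2 FPKM in high IMF and 5.38 FPKM in low IMF animals at the larger of its 2 loci, on chromosome 9, with a difference of 1.44 (limma adjusted p = 0.0693). DGAT1, the other enzyme of that step, had 0.19 (limma adjusted p = 0.608). PCYT1A, the enzyme that supplies phosphatidylcholine to growing droplets, had 0.23 (0.651), and FITM2, which helps droplets bud from the endoplasmic reticulum, 0.38 (0.676).

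Of 5 tested genes of droplet lipolysis, 0 passed by limma and 2 had an unadjusted p under 0.05, where 7.68% of all genes did. The median difference was 0.12, or 0.0058 with TMM and -0.005 with upper-quartile scaling. Those 2 were the hormone-sensitive lipase LIPE at 0.85 (limma adjusted p = 0.288) and ABHD5, which PLIN1 holds and releases to activate PNPLA2, at 0.50 (0.419). PNPLA2, the first lipase of the droplet, had a difference of 0.12 (limma adjusted p = 0.896), at 76.4 FPKM in high IMF and 71.8 FPKM in low IMF animals, and its inhibitor G0S2 had 0.062 (0.976). Over 13 other droplet-associated genes, the median difference was 0.13, or 0.024 with TMM. By limma 0 of these 13 passed and 1 had an unadjusted p under 0.05, where 7.68% of all genes did. That was RAB18, a small GTPase of the droplet surface, at 1.16 (limma adjusted p = 0.415), which is listed at 0 in 3 libraries. HSD17B13 had 0.18 (0.685), SPAST 0.20 (0.695) and SPART 0.41 (0.704). CIDEB, the other CIDE gene, is not analysed here.

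Many droplet genes are targets of the PPAR transcription factors. Of 8 genes, the PPARs and other regulators listed with them, 0 passed by limma. At an unadjusted p under 0.05 there were 2, where 7.68% of all genes did. The median difference was 0.15, against 0.077 over all genes, or 0.076 with TMM. CEBPA, a regulator that is not a PPAR, had 0.81 (limma adjusted p = 0.164). PPARG, the PPAR of fat cells, had 0.45 (0.419), PPARD 0.20 (0.704) and the corepressor NCOR1 -0.20 (0.827). Of 14 measured genes of the response to low oxygen, to which HILPDA belongs, 0 passed by limma. At an unadjusted p under 0.05 there were 0, where 7.68% of all genes did. Their median difference was 0.074, against 0.077 over all genes, or -0.030 with TMM. The named genes were DDIT4 at 0.44 (limma adjusted p = 0.704), HIF1A at -0.22 (0.759), EPAS1 at 0.24 (0.80) and ADM at 0.27 (0.818).

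The IMF difference was also compared between the identifier sets by an interaction term. By limma, 0 of 9 members passed, where 0.0% of all genes did, and 0 had an unadjusted p under 0.05, where 3.29% of all genes did.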

How the data were processed

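PolyA RNA of longissimus dorsi muscle was sequenced as 150-base read pairs, per the labels' protocols. The authors deposited 1 FPKM value per assembled transcript and animal; the unit was inferred from the values. Sscrofa11.1, StringTie 1.3.3 and HISAT2 2.0.5 appear in the submitters' processing notes, without roles. Every listed transcript is above 0 in at least 19 libraries, so rarer ones are not analysed here. The deposited table also holds the authors' fold (a ratio, low over high IMF by its sign against the FPKM means for 328 of 328 transcripts with p-value under 0.01), a p-value and 3 q-values.

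FPKM was summed per symbol and chromosome. Depth was inferred from the step of FPKM times length that makes low values whole within 0.05 base, which held for 73.8% to 88.9% of 38 to 79 values per library; it may count reads or pairs, so it is relative, and as these are bases covered and not reads, no count model was used. The main test was limma 3.58.1 (R 4.3.3) with trend and robust moderation on log2(FPKM + 1), for genes or transcripts with a mean of at least 0.5 FPKM, at an adjusted p of 0.05. Transcript shares were tested without trend, in genes with several transcripts. Correlations used 100000 two-sided permutations within groups (Python 3.11.15, numpy 2.4.6, scipy 1.17.1). Alternatives were TMM and upper-quartile scaling of the FPKM, other filters, a pseudocount of 0.1, covariates and left-out animals. Fits were tested on simulated data. Members, gene lists and tests were chosen with earlier results of these data known; up to 4 genes per list, by smallest p, and up to 3 of the most similar genes per member are named, 1 similar gene not being reported here. A replicate is 1 animal. The sources used here do not say how the animals of a group are related beyond the cross, nor which annotation release was used.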

Additional observations from a re-analysis of the deposited data

How the results depend on the processing

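Member genes called were 0 in the main test, 1 (CIDEA) with array weights, and 0 to 1 with 1 animal left out, the 1 being CIDEA without low IMF animal 10 (adjusted p = 0.0369). The cause was not tested. In the other alternatives tried for genes, transcripts, shares and the identifier sets, the count was 0. CIDEA, CIDEC and ADIG stayed positive in all 36, 36 and 33 fits in which they were tested, with adjusted p of 0.0369 to 0.588, 0.0697 to 0.442 and 0.0744 to 0.347. PLIN1 changed sign with array weights (0.14), 1 animal per shared 9 identifier digits (0.22), its overlapping isoform added (0.21) and without high IMF animal 7 and low IMF animal 10 (0.20), and ranged from -0.27 to 0.10 with 1 animal left out. With 1 animal left out PLIN2 ran from 0.16 to 0.37, PLIN5 from 0.14 to 0.33 and PLIN3 from 0.007 to 0.056. PLIN3 changed sign with TMM (-0.039) and upper-quartile scaling (-0.044), and PLIN4 with reference transcripts only (-0.049). TMM scaling moved the median of all genes from 0.077 to -0.000855, with 7 in place of 8 of 9 members positive, where 49.8% of all genes were positive with TMM and 73.4% without. Of the relations to fat cell markers, 3 passed in the main setting and 2 to 4 in the alternatives, the 4 including PLIN1 without the 2 farthest animals (adjusted p = 0.05). Without a log, CIDEA no longer passed (adjusted p = 0.109) and PLIN4 had an r of 0.16. HILPDA had -0.0197 with TMM scaling and -0.051 without the 2 farthest animals, and PLIN3 and PLIN4 had 0.0597 and 0.041 with group means kept. No paired analysis was possible because the labels give the animals no shared replicate numbers. All genes called higher were 3 to 29 and lower 0 to 2 with 1 animal left out, against 5 and 1 in the main test. The 29 were without low IMF animal 10, and 8 were called higher without high IMF animal 2 or 9. With array weights, which called CIDEA, 23 of 11757 genes were called higher and 3 lower. The added isoforms and the left-out pair were chosen after the data were seen.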

Other observations

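PLIN4 ends against HDGFL2, a gene of the opposite strand whose listed interval starts at 74331909 on chromosome 2, so their last bases overlap. LRG1 ends at 74304559, shortly before PLIN5 starts at 74304634. In the RefSeq annotation of Sscrofa11.1, ADIG spans 41609367 to 41631142 on chromosome 17, beyond the 41616055 at which its only listed transcript ends.

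High IMF animals 8 and 10 had 21.3 and 21.1 FPKM of PLIN2, the highest of all animals, with 0.468 and 0.741 FPKM of PLIN1, among its lowest values. Low IMF animal 10, next in PLIN2 at 17.9 FPKM, had 16.3 FPKM of PLIN1, the highest of its group. PLIN1 with PLIN2 did not pass over the 24 animals (r = -0.32, rho = -0.38, adjusted permutation p = 0.452). Within the groups r was -0.67 in high IMF and 0.26 in low IMF animals. High IMF animals 4 and 8 share the first 9 digits of their identifiers, and had 18.4 and 0.468 FPKM of PLIN1. Low IMF animals 2 and 8 also share these digits with each other, as do low IMF animals 6 and 7. All of these animals are in the lower-numbered set, and the labels do not say what the shared digits mean.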
